A study of Homo sapiens with 4 samples.

Results

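The subunit genes of respiratory chain complexes II to V that are carried by the nuclear genome were examined in the B-CPAP line, which comes from a papillary thyroid carcinoma, with and without knockdown of LDHA, the lactate dehydrogenase subunit that favours the conversion of pyruvate to lactate. The genes were picked by name alone, as the SDHA to SDHD genes of complex II, the UQCR genes with CYC1 and CYCS for complex III and cytochrome c, the COX4I to COX8 genes of complex IV and the ATP5 genes of complex V, leaving out names of pseudogenes. The names took 51 of 59108 rows of the expression table, and 45 of these reached at least 0.5 FPKM (fragments per kilobase of transcript and per unit of sequencing depth) in 2 or more libraries, among 13291 rows that did so. All 4 genes of complex II and all 10 of complex III and cytochrome c were tested, as were 12 of 17 of complex IV and 19 of 20 of complex V. The 6 genes below the limit were COX4I2, COX6A2, COX7A1, COX7B2 and COX8C, listed at 0 FPKM in every library, and ATP5MGL, listed at 0 FPKM in 3 libraries and at 0.14 FPKM in shLDHA library 2.

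Complex II takes electrons from succinate, complex III hands electrons from ubiquinol to cytochrome c, and complex IV passes them on to oxygen, while complex V uses the resulting proton gradient to make ATP. Most subunits are made from nuclear genes and imported, and complexes III, IV and V also need subunits made inside the organelle from the mitochondrial genome. Complex II alone is wholly of nuclear origin and also serves the tricarboxylic acid cycle. Cells with little lactate dehydrogenase activity are known to lean more on respiration to reoxidise NADH.

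RNA-Seq was performed in 2 libraries of cells infected with a lentivirus carrying a short hairpin RNA against GFP (shGFP, the control) and in 2 libraries of cells infected with a hairpin virus against LDHA (shLDHA), a gene of chromosome 11, with puromycin used to select infected cells. Every library came from this line, and none of cells without a virus enters the comparison. The sources used here do not give the LDHA hairpin behind either library, nor whether the libraries of a group came from separate cultures, and the p-values below measure only the spread between these libraries. In bulk RNA, fewer cells of a kind and less RNA per cell cannot be told apart.

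LDHA stood at 1049 and 1056 FPKM in the shGFP libraries and at 184 and 203 FPKM in the shLDHA libraries after scaling by the trimmed mean of M values (TMM). The groups were far apart, with a log2 fold change of -2.44 ± 0.08 (standard error) at a limma adjusted p of 0.00756. The depth, estimated from the low FPKM, lay between 18800000 and 25300000 fragments per library. The unnamed rows held 0.361% to 0.440% of the FPKM total in 3 libraries and 3.53% in shLDHA library 2. Of 11 thyroid follicular and epithelial markers, 4 passed the limit on FPKM: PAX8 at 65.7 to 99.4 deposited FPKM, FOXE1 at 2.54 to 5.83 FPKM, and the keratins KRT8 and KRT18. FOXE1 fell by 0.77 on the log2 scale (limma adjusted p = 0.0294). The defining thyroid genes TSHR and NKX2-1 were at 0 FPKM in every library, TG was at most at 0.12 FPKM and SLC5A5 at most at 0.01 FPKM. Of 8 markers of other cell types 4 passed the limit, with a summed level of 50.8 and 52.9 FPKM in shGFP and 57.5 and 46.7 FPKM in shLDHA libraries. Among them PTPRC and CALCA were at 0 FPKM in every library, CD68 rose by 0.72 and PDGFRB fell by 0.76 on the log2 scale (limma adjusted p = 0.0141 and 0.0176). The part of such cells in the results was not tested.

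In the shLDHA libraries 22 of the 45 subunit genes rose, none fell and 23 did not pass the test, at an adjusted p under 0.05 by limma with Benjamini-Hochberg adjustment over all 13291 rows. Among all rows tested, 18.1% rose and 12.9% fell. At an unadjusted limma p under 0.05, 34 of the genes were higher and 0 lower. The median log2 fold change of the 45 genes was 0.62, against -0.004 over all rows. Both shLDHA libraries stood above both shGFP libraries for 36 of the genes and below them for 5, while 4 overlapped, and over all rows these shares were 36.4% above and 36.1% below. COX6B2, a complex IV isoform known from testis, passed the limit on FPKM only through the shLDHA libraries, where it was high. Leaving it out, 21 of 44 genes rose, with a median of 0.61. By complex, 1 of 4 genes of complex II rose, 6 of 10 of complex III and cytochrome c, 9 of 12 of complex IV and 6 of 19 of complex V. Their median log2 fold changes were 0.07, 0.65, 0.81 and 0.62 in the same order. Without COX6B2, 8 of 11 genes of complex IV rose, with a median of 0.80.

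These counts moved with the scale set between the libraries, whose summed FPKM were 996249 and 1003696 in shGFP and 1119483 and 1144490 in shLDHA cells. With the FPKM as deposited, where the median of all rows was -0.33, 10 of the genes rose and 3 fell. Of all rows, 6.8% rose and 23.4% fell in that setting. With every library set to the same FPKM total, where the median of all rows was -0.50, 7 rose and 7 fell. Here 4.57% of all rows rose and 34% fell. With COX6B2 left aside, the genes that rose under TMM, the deposited values, upper quartile scaling and equal totals alike were CYC1, UQCRB, COX5B, COX6C, COX8A and ATP5F1D.

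**Figure D1:**
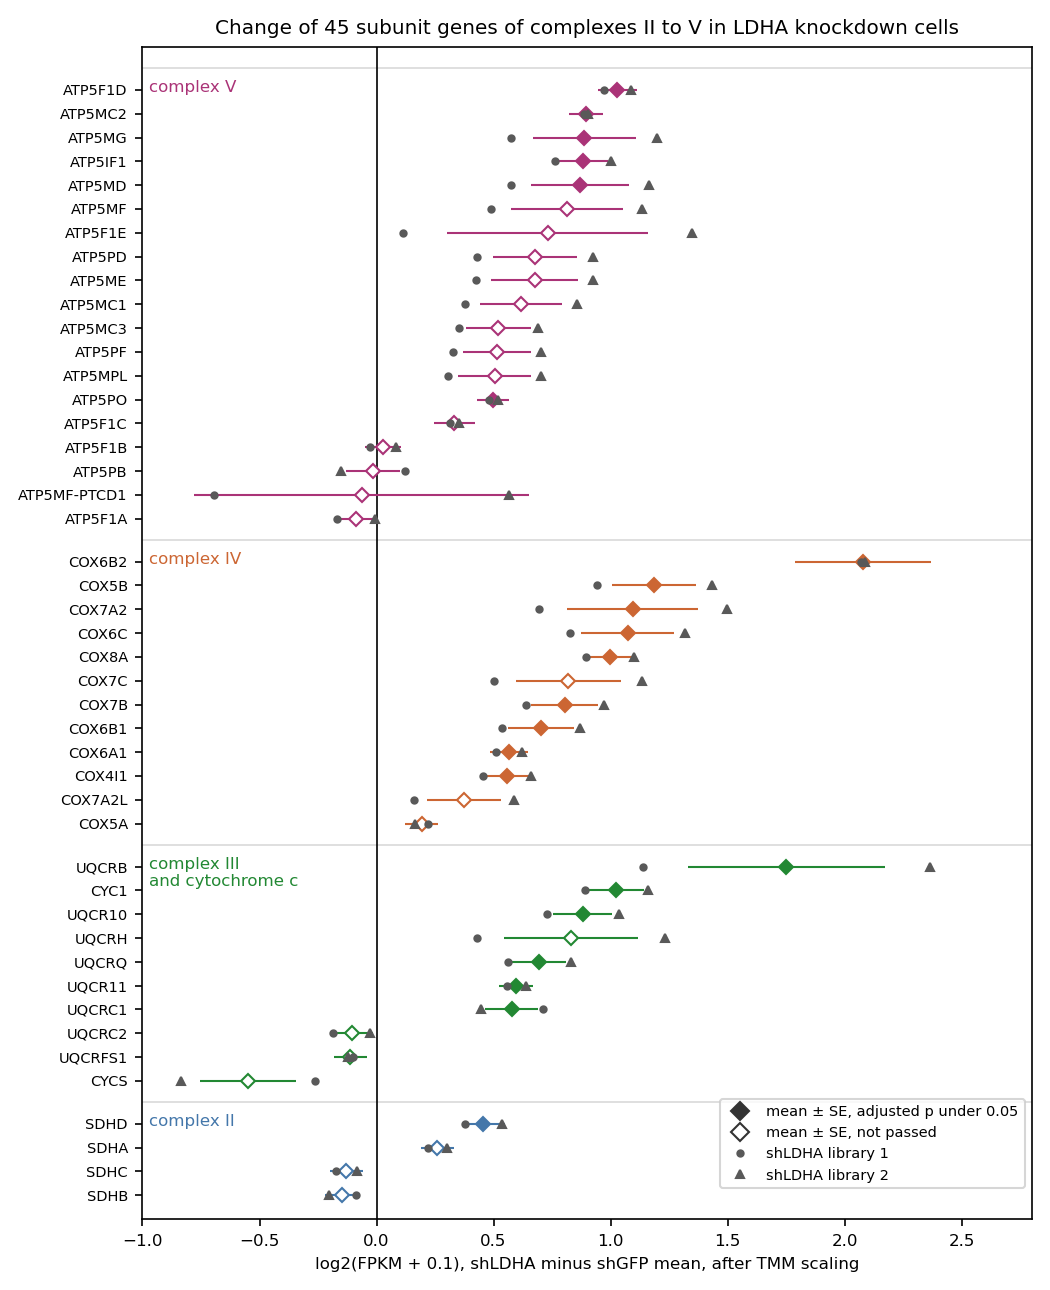
Log2 fold change of each of the 45 tested subunit genes, shLDHA against shGFP, on the log2(FPKM + 0.1) scale after TMM scaling; diamonds give the mean of 2 against 2 libraries with the standard error (filled, limma adjusted p under 0.05), and small grey symbols give each shLDHA library against the shGFP mean. All 12 genes of complex IV lay above 0, among them COX6B2, which passed the limit on FPKM only through the shLDHA libraries. Library 2 lay above library 1 for 39 of the 45 genes. With equal FPKM totals the values shift down and 7 genes rose and 7 fell, beside 4.57% and 34% of all rows.

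The promoters of the subunit genes are known for sites of the factors NRF1, GABP (an ETS family factor), YY1 and the oestrogen-related receptors, and 4 of them are shown as RefSeq gives them for GRCh38.p14. They are those of COX5B and COX8A, which rose in every scaling, of SDHD, which rose as the only gene of complex II, and of CYCS, the gene with the lowest log2 fold change. Each run holds the 250 bases before the start of transcription, 5′ to 3′ on the strand of the gene, with motif matches in capitals.
COX5B, chr2:97645812-97646061, plus strand: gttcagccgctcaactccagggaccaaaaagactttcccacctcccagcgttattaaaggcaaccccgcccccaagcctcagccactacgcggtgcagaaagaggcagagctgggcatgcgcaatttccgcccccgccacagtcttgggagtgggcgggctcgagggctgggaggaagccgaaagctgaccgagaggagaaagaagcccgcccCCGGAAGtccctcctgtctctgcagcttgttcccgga
COX8A, chr11:63974370-63974619, plus strand: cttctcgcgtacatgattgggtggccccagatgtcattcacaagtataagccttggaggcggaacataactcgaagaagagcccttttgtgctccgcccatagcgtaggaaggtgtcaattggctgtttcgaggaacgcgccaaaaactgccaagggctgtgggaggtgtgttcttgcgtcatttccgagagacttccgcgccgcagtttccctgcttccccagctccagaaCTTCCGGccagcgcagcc
SDHD, chr11:112086623-112086872, plus strand: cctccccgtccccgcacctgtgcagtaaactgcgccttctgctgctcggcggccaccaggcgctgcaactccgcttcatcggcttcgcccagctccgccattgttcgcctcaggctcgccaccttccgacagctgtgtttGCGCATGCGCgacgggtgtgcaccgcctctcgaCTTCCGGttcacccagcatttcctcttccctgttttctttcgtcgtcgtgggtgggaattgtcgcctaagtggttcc
CYCS, chr7:25125261-25125510, minus strand: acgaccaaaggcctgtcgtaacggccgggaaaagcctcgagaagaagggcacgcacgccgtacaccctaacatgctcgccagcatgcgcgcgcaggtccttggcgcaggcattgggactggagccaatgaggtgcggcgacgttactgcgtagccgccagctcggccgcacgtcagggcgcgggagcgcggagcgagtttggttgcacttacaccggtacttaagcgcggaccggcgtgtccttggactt

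Matches were sought on both strands for CCGGAAG (ETS), for AANATGGCG (YY1), for TNAAGGTCA (oestrogen-related receptors) and for GCGC, 2 bases of any kind and GCGC (NRF1). The capitals mark an ETS match that begins 37 bases before the start of COX5B, one 18 bases before that of COX8A, and in SDHD an NRF1 match 110 bases and an ETS match 77 bases before the start. The windows searched ran on to 50 bases after the start, which the printed runs leave out. The CYCS window held none of these letters, and the window of SDHD held an oestrogen-related receptor match that is not within the bases shown. Of the 45 genes, 36 matched a window in the RefSeq table, some with more than 1 start, which gave 42 windows. The ETS letters lay in 40.5% of these windows and in 10.3% of all 35116 windows, and the NRF1 letters in 23.8% and 8.32%. The YY1 letters lay in 16.7% and 3.19%, and those of the oestrogen-related receptors in 2.38% and 0.951%. The ETS match was found for 10 of 18 genes that rose and for 6 of 18 that did not pass the test, and the NRF1 match for 5 of 18 in each. The 18 genes that rose include COX6B2, whose window held no match and which passed the limit on FPKM only through the shLDHA libraries. UQCRB, CYC1, COX6C and ATP5F1D, which rose in every scaling, had no window and are missing from this comparison. A match describes these letters and is not a bound site.

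Complex II was the complex whose summed RNA changed least after TMM scaling. Its 4 genes together stood at 435 and 432 FPKM in the shGFP libraries and at 421 and 434 FPKM in the shLDHA libraries, 0.970 and 1.0 times the shGFP mean. SDHD, a membrane anchor of the complex, stood at 25.2 and 25.7 FPKM in shGFP and at 33.2 and 36.9 FPKM in shLDHA cells. The groups did not overlap, and SDHD rose by a log2 fold change of 0.46 ± 0.09 (standard error) at a limma adjusted p of 0.0280, although with equal FPKM totals its value was -0.06. SDHA, the flavoprotein that oxidises succinate, had 70.4 and 69.7 FPKM in shGFP and 81.6 and 86.3 FPKM in shLDHA libraries. Both shLDHA values were the higher ones, by 0.26 on the log2 scale (limma adjusted p = 0.0564), and the sign turned with the deposited FPKM (-0.08) and with equal totals (-0.26). SDHB, the iron-sulphur subunit that takes electrons from SDHA, had 110.2 and 109 FPKM against 103 and 95.2 FPKM. SDHC, the other anchor, had 229 and 228 FPKM against 203 and 215 FPKM. For both, the shLDHA libraries lay below the shGFP libraries, with log2 fold changes of -0.15 and -0.13 that did not pass the test (limma adjusted p = 0.201 and 0.225). Other settings put them past it, as SDHC fell with the deposited FPKM (-0.47), equal totals (-0.65), transcript length offsets (-0.53) and coding length offsets (-0.44), and SDHB with equal totals (-0.67) and transcript length offsets (-0.63).

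Complex III and cytochrome c held the gene with the widest gap between the shLDHA libraries among those that rose. UQCRB, a small subunit next to the ubiquinone site, stood at 69.5 and 70.7 FPKM in shGFP libraries and at 154 and 362 FPKM in shLDHA libraries 1 and 2. Both shLDHA libraries were more than 2 times above the shGFP pair but far from each other, and the log2 fold change was 1.75 ± 0.42 (standard error) at a limma adjusted p of 0.0418. CYC1, the haem subunit that reduces cytochrome c, had 547 and 576 FPKM in shGFP and 1039 and 1254 FPKM in shLDHA libraries. Here the shLDHA libraries lay 0.27 apart on the log2 scale, with a log2 fold change of 1.02 ± 0.12 (standard error) at a limma adjusted p of 0.0108. UQCR10, another small subunit, had 109.9 and 116 FPKM against 187 and 232 FPKM, a log2 fold change of 0.88 (limma adjusted p = 0.0153). The groups of UQCR10 did not overlap.

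The hinge subunit UQCRH, which helps to bind cytochrome c, had 266 and 301 FPKM in shGFP and 381 and 664 FPKM in shLDHA libraries. Its groups did not overlap either, but with shLDHA library 2 at 1.23 and library 1 at 0.43 on the log2 scale above the shGFP mean, the mean of 0.83 did not pass the test (limma adjusted p = 0.0902). The small subunits UQCRQ and UQCR11 rose by log2 fold changes of 0.69 and 0.60 (limma adjusted p = 0.0194 and 0.0121). UQCRC1, a core subunit, had 438 and 422 FPKM against 704 and 585 FPKM and rose by a log2 fold change of 0.58 (limma adjusted p = 0.0274), with library 1 the higher of the shLDHA pair. The other core subunit behaved otherwise, as UQCRC2 had 42.1 and 43.6 FPKM in shGFP and 37.7 and 42.0 FPKM in shLDHA libraries. UQCRFS1, the Rieske iron-sulphur protein, had 101 and 106 FPKM against 96.4 and 95.2 FPKM. For UQCRC2 and UQCRFS1 both shLDHA libraries lay just below the shGFP pair, at log2 fold changes of -0.11 each that did not pass the test (limma adjusted p = 0.405 and 0.279). CYCS, the mobile electron carrier itself, had 32.2 and 31.6 FPKM in shGFP and 26.5 and 17.8 FPKM in shLDHA libraries. It stood lower in both shLDHA libraries, by more in library 2, and its log2 fold change of -0.55 (standard error 0.21) did not pass the test (limma adjusted p = 0.109).

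In complex IV both shLDHA libraries lay above both shGFP libraries for every one of the 12 genes tested, and 9 of them rose. Over all rows 36.4% lay above in this way and 18.1% rose. Leaving out COX6B2, 8 of 11 rose and all 11 lay above, with a median log2 fold change of 0.80. COX5B, a zinc-binding subunit on the matrix side, had 200.1 and 203 FPKM in shGFP and 386 and 543 FPKM in shLDHA libraries. The shLDHA libraries were clear of the control pair, with a log2 fold change of 1.19 ± 0.18 (standard error) at a limma adjusted p of 0.0165. COX7A2 had 143 and 152 FPKM against 239 and 416 FPKM, and COX6C, like COX7A2 a small membrane subunit, had 117 and 139 FPKM against 226 and 318 FPKM. Library 2 was the higher in both genes, and their log2 fold changes were 1.09 and 1.07 (limma adjusted p = 0.0481 and 0.0239). COX8A, a small membrane subunit and the most abundant of the 45 transcripts in shLDHA library 2, had 748 and 768 FPKM against 1407 and 1624 FPKM. It rose 1.99-fold, with a limma adjusted p of 0.00913, and the shLDHA libraries lay 0.21 apart on the log2 scale.

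COX7B, COX6B1, COX6A1 and COX4I1 rose by log2 fold changes of 0.80, 0.70, 0.57 and 0.56 (limma adjusted p = 0.0222, 0.0284, 0.0155 and 0.0240). COX4I1, the ubiquitous form of the subunit that senses ATP, went from 888 and 931 FPKM to 1248 and 1436 FPKM. COX7C, COX7A2L and COX5A did not pass the test. COX7C had 267 and 278 FPKM against 386 and 598 FPKM, a log2 fold change of 0.82 (limma adjusted p = 0.0552), with the shLDHA libraries 0.63 apart. COX7A2L, known for joining complexes III and IV into supercomplexes, had 74.7 and 74.8 FPKM against 83.6 and 112 FPKM. Its log2 fold change of 0.37 (limma adjusted p = 0.138) turned to -0.15 with equal FPKM totals. COX5A, which contacts COX5B and COX4I1 in the complex, had 207 and 216 FPKM against 247 and 237 FPKM. Its log2 fold change of 0.19 (limma adjusted p = 0.103) turned to -0.15 with the deposited FPKM and to -0.33 with equal totals.

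The tissue isoforms of complex IV divided sharply by level. COX4I2, COX6A2, COX7A1, COX7B2 and COX8C, known from lung, heart and skeletal muscle or testis, were listed at 0 FPKM in all 4 libraries, whereas their partners COX4I1, COX6A1, COX7A2, COX7B and COX8A lay between 22.8 and 1624 FPKM. COX6B2 was the one minor isoform that was measured, at 0.256 and 0.259 FPKM in shGFP and at 1.40 and 1.42 FPKM in shLDHA libraries. The shLDHA libraries differed by 0.01 on the log2 scale, and the log2 fold change of 2.08, which was 0.94 with a pseudocount of 1, is given with no test, since the gene passed the limit on FPKM only through these libraries. On the same FPKM scale COX6B2 stayed far below COX6B1, which had 475 and 526 FPKM in shGFP and 724 and 912 FPKM in shLDHA libraries.

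In complex V 6 of 19 genes rose, and 15 had both shLDHA libraries above both shGFP libraries, beside 18.1% and 36.4% of all rows. ATP5F1A and ATP5F1B, the alpha and beta subunits that form the catalytic head, had overlapping groups. ATP5F1A had 252 and 266 FPKM in shGFP and 230.1 and 258 FPKM in shLDHA libraries, a log2 fold change of -0.09 (limma adjusted p = 0.480). ATP5F1B had 609 and 613 FPKM against 599.9 and 646 FPKM, a log2 fold change of 0.03 (limma adjusted p = 0.804), which was negative in the other scalings (-0.10 to -0.49). The subunits of the central stalk stood higher in both shLDHA libraries. ATP5F1D, the delta subunit, had 248.8 and 267 FPKM against 506 and 547 FPKM and rose by a log2 fold change of 1.03 ± 0.08 (standard error) at a limma adjusted p of 0.00769. ATP5F1C, the gamma subunit that turns within the head, had 125 and 142 FPKM against 166 and 170.0 FPKM. Its log2 fold change of 0.33 did not pass the test (limma adjusted p = 0.0528) and had the other sign with the deposited FPKM (-0.01) and with equal totals (-0.19). ATP5F1E, the epsilon subunit, had 52.8 and 60.7 FPKM against 61.2 and 144 FPKM. Library 1 barely left the shGFP range while library 2 was far above it, and the log2 fold change of 0.73 (standard error 0.43) did not pass the test (limma adjusted p = 0.248).

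Subunit c, the proton-carrying ring, is encoded by ATP5MC1, ATP5MC2 and ATP5MC3, which give the same mature protein. ATP5MC2 had 462 and 481 FPKM in shGFP and 871 and 880.0 FPKM in shLDHA libraries. The shLDHA libraries all but coincided, and the log2 fold change was 0.89 ± 0.07 (standard error) at a limma adjusted p of 0.00768. ATP5MC1 had 449 and 463 FPKM against 593 and 826 FPKM (log2 fold change 0.62, limma adjusted p = 0.0606), and ATP5MC3 had 372 and 405 FPKM against 495 and 626 FPKM (0.52, limma adjusted p = 0.0527). Neither passed the test, although in both the groups were apart, and ATP5MC3 came to -0.001 with equal FPKM totals. The share of ATP5MC2 in the sum of these genes was 36.0% and 35.6% in shGFP libraries, 44.5% in shLDHA library 1 and 37.7% in library 2. ATP5MC1 gave 35.0%, 34.3%, 30.3% and 35.4% in the same order, so its share was low in shLDHA library 1 only, and ATP5MC3 gave the rest.

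The inhibitor ATP5IF1, which blocks ATP hydrolysis by the enzyme when the proton gradient fails, had 141 and 149 FPKM in shGFP and 246 and 290.3 FPKM in shLDHA libraries. It rose clear of the shGFP libraries by a log2 fold change of 0.88 ± 0.11 (standard error) at a limma adjusted p of 0.0117. ATP5MG, subunit g of the membrane part, had 140.3 and 146 FPKM against 214 and 329 FPKM and rose by 0.89 on the log2 scale (limma adjusted p = 0.0454). ATP5MD, a small membrane subunit now named ATP5MK, had 273 and 278 FPKM against 410.2 and 618 FPKM and rose by 0.87 (limma adjusted p = 0.0426). In both genes library 2 was the higher of the pair. ATP5PO, the peripheral stalk subunit that confers oligomycin sensitivity, had 174 and 181 FPKM against 248 and 254 FPKM. It rose by a log2 fold change of 0.50 ± 0.07 (standard error) at a limma adjusted p of 0.0142, and came to -0.02 with equal FPKM totals.

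Of the other peripheral stalk genes, ATP5PB had 69.4 and 70.8 FPKM in shGFP and 76.3 and 63.1 FPKM in shLDHA libraries, so the shLDHA libraries lay on both sides of the shGFP pair (log2 fold change -0.01, limma adjusted p = 0.929). ATP5PD and ATP5PF of the stalk and ATP5ME, ATP5MF and ATP5MPL (now ATP5MJ) of the membrane part had log2 fold changes of 0.50 to 0.81, with limma adjusted p from 0.0519 to 0.0741. None of these 5 passed the test, and in each both shLDHA libraries were above both shGFP libraries. With equal totals ATP5PF and ATP5MPL came to -0.01 and -0.02. COX7A2, at 0.0481, and ATP5PD, at 0.0519, were the genes nearest the limit of the limma adjusted p on either side. ATP5MF-PTCD1, a readthrough transcript that shares its first exons with ATP5MF, had 1.59, 0.482, 0.513 and 1.37 FPKM across the libraries, with wide overlap, and its reads cannot be told apart from those of its partners.

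**Figure D2:**
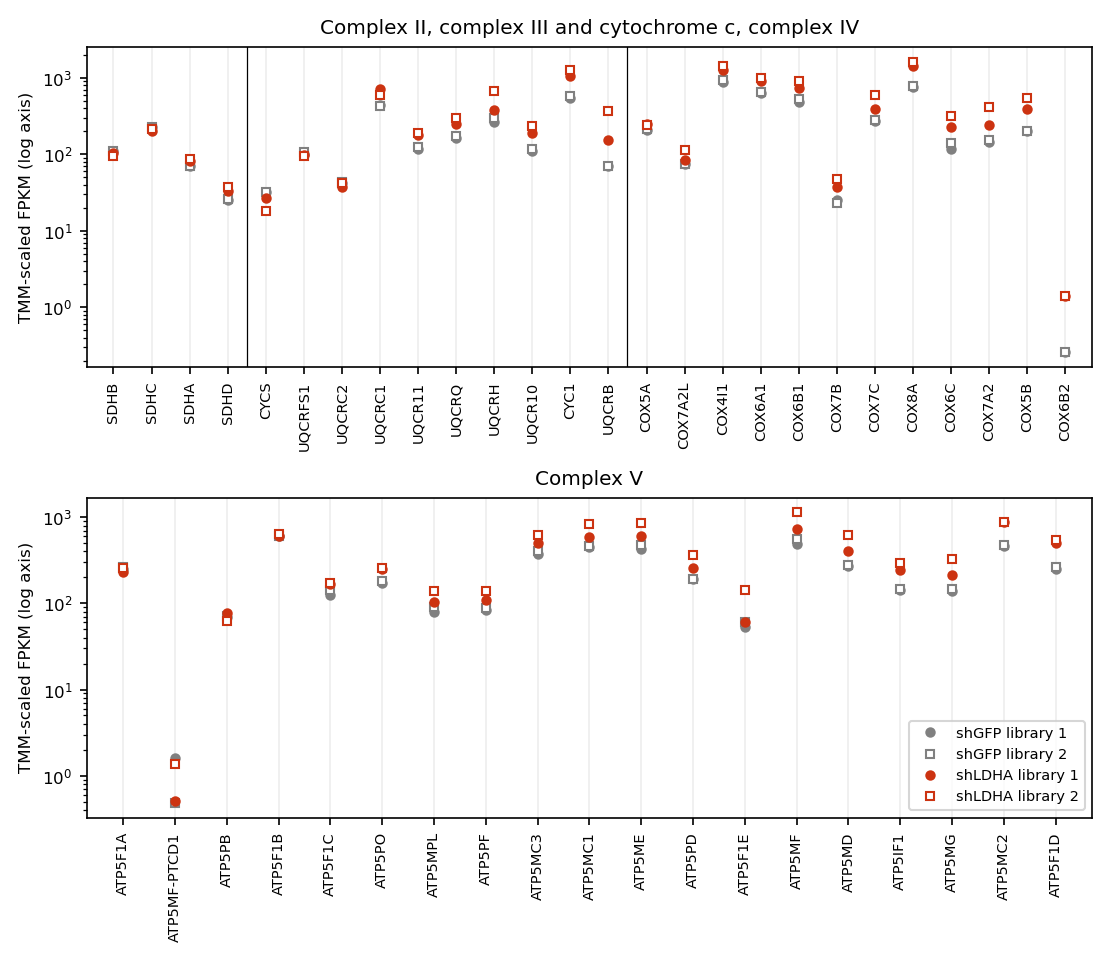
TMM-scaled FPKM of the 45 subunit genes in each library on a log axis, with genes ordered within each complex by their log2 fold change; grey symbols are the 2 shGFP and red symbols the 2 shLDHA libraries (filled, library 1; open, library 2). The shGFP libraries lie close together except for ATP5MF-PTCD1 (1.59 and 0.482 FPKM), and COX6B2, from 0.256 to 1.42 FPKM, lies far below COX8A, from 748 to 1624 FPKM.

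The shLDHA libraries were further from each other than the shGFP libraries were. The median distance on the log2 scale over the 45 genes was 0.27 between the shLDHA libraries and 0.06 between the shGFP libraries, against 0.22 and 0.12 over all rows. Library 2 was above library 1 for 39 genes, and the exceptions were SDHB, UQCRC1, UQCRFS1, CYCS, COX5A and ATP5PB. Each library set against the shGFP mean gave a median of 0.46 in library 1 and of 0.83 in library 2. By complex, the medians in libraries 1 and 2 were 0.07 and 0.11 for complex II, 0.56 and 0.73 for complex III and cytochrome c, 0.59 and 1.03 for complex IV, and 0.38 and 0.86 for complex V. Of 10 genes whose shLDHA libraries lay more than 0.5 apart, UQCRB, COX7A2, ATP5MG and ATP5MD rose and 6 did not pass the test. Library 2 was also the library with 3.53% of its FPKM in unnamed rows, whose part in this difference was not tested.

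Leaving out a library left 1 library in its group. The spread in such a fit comes from the other pair alone, so effect sizes are given here and its calls are not taken as tests. The median log2 fold change of the 45 genes was 0.83 without shLDHA library 1 and 0.46 without shLDHA library 2. It was 0.61 without shGFP library 1 and 0.64 without shGFP library 2. Of the 45 genes, 37 lay above 0 without shLDHA library 2, and 38 in each of the other fits of this kind.

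The partners from the mitochondrial genome did not rise with the nuclear genes. MT-CYB, the cytochrome b of complex III, had 3493 and 3436 FPKM in shGFP and 2589 and 2225 FPKM in shLDHA libraries, and fell by 0.53 on the log2 scale (limma adjusted p = 0.0317). MT-CO1, the catalytic subunit of complex IV, had 11542 and 11413 FPKM against 8389 and 6456 FPKM and fell by 0.64 (limma adjusted p = 0.0484). For both genes the shLDHA libraries were the lower ones, library 2 more so. MT-CO2 and MT-CO3 did not pass the test, at log2 fold changes of 0.07 and 0.15, with library 1 above and library 2 below the shGFP pair. MT-ATP6 and MT-ATP8, subunits of complex V that overlap in 1 transcript and cannot be fully told apart, fell by 0.80 and 0.86 (limma adjusted p = 0.0142 and 0.0318). Of these 6 genes 4 fell and none rose under TMM scaling, beside 12.9% and 18.1% of all rows. At an unadjusted limma p under 0.05, 0 of them were higher.

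The sum over the nuclear genes of complex III and cytochrome c was 1.58 and 1.94 times the shGFP mean in shLDHA libraries 1 and 2, that of complex IV 1.52 and 1.87 times, and that of complex V 1.36 and 1.73 times. The mitochondrial partners of complex V came to 0.627 and 0.492 times the shGFP mean. These values are those after TMM scaling, and the shares of each library's FPKM total moved less for the nuclear genes of complexes III to V. Complex V held 0.527% and 0.550% of the total in shGFP and 0.556% and 0.598% in shLDHA libraries. Complex IV held 0.429% and 0.443% against 0.504% and 0.522%, and complex III with cytochrome c 0.214% and 0.219% against 0.260% and 0.270%. Complex II, whose sum changed least under TMM, moved more by its share. It held 0.0494% and 0.0483% of the total in shGFP and 0.0359% and 0.0313% in shLDHA libraries. The ratio of nuclear to mitochondrial FPKM within a library does not depend on the scaling between libraries. For complex V, nuclear over mitochondrial FPKM was 0.132 and 0.146 in shGFP and 0.303 and 0.490 in shLDHA libraries. Most of this mitochondrial sum was MT-ATP8, with 28344 of 35102 FPKM in shGFP library 1. Its 207 bases are fewer than the 240 to 280 bases by which the low FPKM appear to shorten transcripts. Its level is thus uncertain, and the part of this in the ratio was not tested. For complex IV it was 0.0991 and 0.104 in shGFP and 0.142 and 0.230 in shLDHA libraries. For complex III with cytochrome c, set against MT-CYB, it was 0.540 and 0.571 in shGFP and 1.18 and 1.68 in shLDHA libraries. In all of these ratios the shLDHA libraries were above the shGFP libraries, and library 2 was the highest. An exact permutation test of 2 against 2 libraries cannot give a p under 0.333, so none was run on these ratios.

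**Figure D3:**
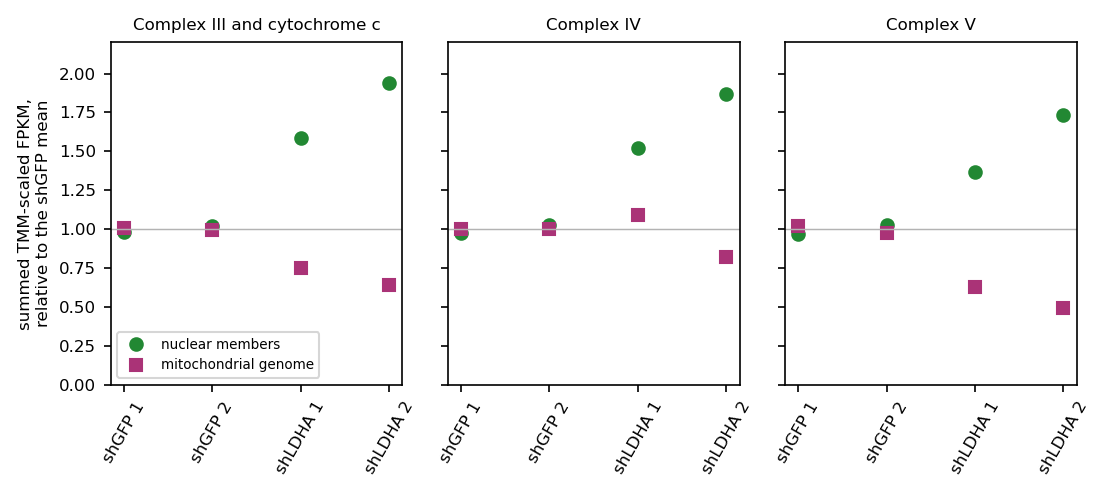
Summed TMM-scaled FPKM of the nuclear genes (circles) and of the mitochondrially encoded subunits (squares) of complexes III with cytochrome c, IV and V in each library, divided by the mean of the 2 shGFP libraries. Nuclear sums reached 1.36 to 1.94 in the shLDHA libraries, while the mitochondrial sums of complexes III and V fell to 0.492 to 0.747 and that of complex IV lay at 1.09 and 0.823.

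Genes of the same pathway outside complexes II to V were described by lists, under TMM scaling and without length offsets only. Of 37 nuclear subunit genes of complex I, 19 rose and none fell, beside 18.1% and 12.9% of all rows. At an unadjusted limma p under 0.05, 0 of these genes were lower. Their median log2 fold change was 0.73. Those of lowest p were NDUFS7 (1.08), NDUFS8 (1.02) and NDUFB7 (1.13), with limma adjusted p of 0.00767, 0.00770 and 0.00842. NDUFA4, now counted with complex IV, stood at 0.96 without passing the test (limma adjusted p = 0.0793). Of 37 assembly factors of complexes II to V, which insert cofactors and join subunits, 8 rose, beside 18.1% of all rows, and none fell (3 lower at an unadjusted limma p under 0.05), with a median of 0.23 that is smaller than the shift of all rows under equal totals. Of 11 transcriptional regulators of respiratory genes, 1 rose and 3 fell, beside 18.1% and 12.9% of all rows. ESRRA alone rose, by 0.82 (limma adjusted p = 0.0239). PPRC1, a coactivator related to PGC-1alpha, fell by 0.80, GABPB1, the partner that activates transcription with the ETS factor GABPA, by 0.88, and TFB2M, an initiation factor of mitochondrial transcription, by 0.49 (limma adjusted p = 0.0157, 0.0189 and 0.0353). The median of the regulators was -0.54. At an unadjusted limma p under 0.05, 1 of them was higher and 8 were lower, where 6201 of all 13291 rows passed in either direction. GABPA, YY1 and NRF1 stood at -0.83, -0.54 and -0.40 and did not pass the test (limma adjusted p = 0.0611, 0.0607 and 0.0990). In each of these both shLDHA libraries lay below both shGFP libraries.

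Genes of short coding length were more often higher than lower in the shLDHA libraries, and most of the subunit genes are short. Of the 45 genes, 30 had a coding length under 500 bases in the main transcript of GENCODE, and 17 of these rose, COX6B2 among them, with a median log2 fold change of 0.77. All tested genes of that length numbered 1047, of which 361 rose and 49 fell, with a median of 0.46. Both shLDHA libraries lay above both shGFP libraries for 29 of the 30 subunit genes, COX6B2 among them, and for 673 of the 1047. Of the 15 subunit genes from 500 bases upwards 5 rose (CYC1, UQCRC1, COX4I1, ATP5F1D and ATP5PO), with a median of 0.03, against -0.07 over 10232 such genes, of which 1781 rose and 1533 fell. Spearman's rho of the log2 fold change with coding length was -0.54 across the 45 genes and -0.32 across 11279 tested genes, as a description across genes that share the same 4 libraries. CYCS, with 315 coding bases, was the only one of the 30 short genes with both shLDHA libraries below the shGFP pair. When all tested genes were divided by coding length into 10 groups of equal size, the shortest group, of median length 387 bases, had a median log2 fold change of 0.45 and 34.8% of its genes rose, whereas the longest group, of 4638 bases, had a median of -0.37 and 7.45% rose. The low FPKM stepped by an amount set by transcript length less about 280 bases in 3 libraries and about 240 bases in shLDHA library 2, and the part of this deduction in the values of the shortest transcripts was not tested.

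**Figure D4:**
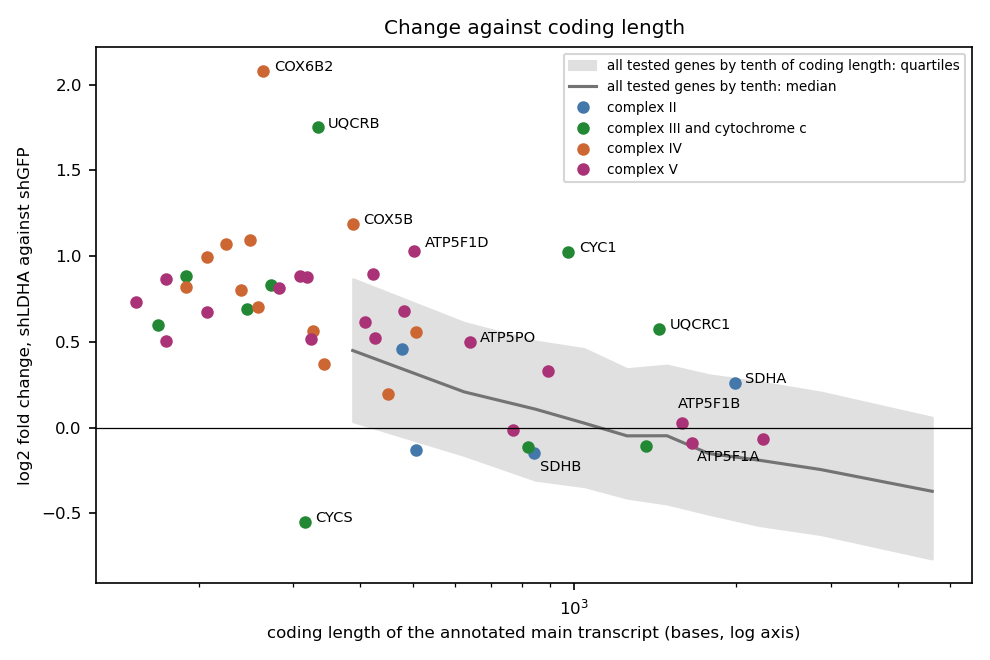
Log2 fold change of the 45 subunit genes, shLDHA against shGFP after TMM scaling, against the coding length of the main transcript in bases on a log axis; the line and band give the median and quartiles of all tested genes in 10 groups of equal size by coding length. COX5B (1.19), ATP5F1D (1.03) and CYC1 (1.02) lie above the band at their length, COX6B2 (2.08) and UQCRB (1.75) lie highest among the shortest genes, and CYCS (-0.55) is the lowest point.

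Offsets that took the smooth trend with length out of each library lowered the counts. With offsets by coding length 12 of the 45 genes rose and 3 fell, at a median of 0.20 (19.7% and 16% of all rows), and with offsets by transcript length 11 rose and 2 fell, at a median of 0.22 (15.5% and 12.9%). COX6B2 is among the genes that rose in both counts. With COX6B2 left aside, those that rose with and without both offsets were CYC1, UQCRB, COX5B, COX6C, COX8A, ATP5F1D and ATP5IF1. Of these CYC1, COX5B, COX8A and ATP5F1D rose in all 10 fits that used the 4 libraries. CYCS was among the genes that fell in some of these fits, with offsets by coding length, by 1.02, and with equal FPKM totals, by 1.07 on the log2 scale. UQCRC2, UQCRFS1 and ATP5F1A also fell in 2 of the 10 fits each and ATP5F1B in 1.

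Over all rows, 6.8% rose and 23.4% fell with the deposited FPKM, 14.3% and 18.5% with upper quartile scaling, and 4.57% and 34% with equal totals. Of all calls, 58.5% were higher under TMM, 22.5% with the deposited FPKM, 43.5% with upper quartile scaling and 11.9% with equal totals. Without the limit on low FPKM 14 of the 45 genes rose (7.46% of all rows rose and 4.52% fell), and without the variance trend 13 (13.1% and 11.5%). UQCRB, COX7A2 and COX6C were among the genes that no longer passed without the limit. A pseudocount of 1 left the count at 22 (18.2% and 13.2%). With the replicate number as a block 31 genes rose (16.6% and 9.28%).

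In 29 of the 45 genes the table held rows named as pseudogenes of them, 145 in all, which can share reads with their parents. For UQCRFS1 these rows summed to at most 15.5% of the gene's own FPKM and for SDHA to at most 8.37%. For CYCS, with 40 such rows, the share was at most 3.39%, in shLDHA library 2, and for the other genes it was lower still. Reads moved between these genes and their copies cannot be told apart in the table.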

How the data were processed

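RNA of B-CPAP cells was sequenced in 4 libraries, 2 shGFP and 2 shLDHA. After trimming with Trim Galore, the methods of the study describe STAR on hg19, HTSeq with GENCODE and TMM, whereas HISAT2 and hg38 stand in the submitters' processing notes. Neither the route to the table nor the tool that scaled by length is given in the sources used here. The authors deposited FPKM (2 decimals) in a table labelled as counts, so limma (version 3.58.1 in R 4.3.3) took the place of a count test. Rows with no name (224) or with a date as name (27) were left out. Rows with at least 0.5 FPKM in 2 or more libraries (13291) were scaled by an unweighted TMM (trims of 30% on M and 5% on A), and log2(FPKM + 0.1) was tested with a variance trend on 2 residual degrees of freedom, Benjamini-Hochberg adjusted over all rows. Fold changes of low genes are understated on this scale. FPKM in the text are TMM-scaled unless called deposited.

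Lengths came from GENCODE version 44 on GRCh37 by symbol, and length offsets removed a spline of 5 degrees of freedom in each library. The shGFP libraries correlated at a Spearman's rho of 0.983 and the shLDHA libraries at 0.966, so each was counted. Depth was estimated by taking low FPKM as whole fragments, which held within 0.15 fragments for 85.3% to 86.4% of values. Named genes are LDHA, in each complex the 4 with the highest and 2 with the lowest log2 fold change, isoform groups, ATP5IF1, genes below 0, those nearest the threshold, the mitochondrial partners and up to 3 genes of lowest p per further list; TFB2M and the remaining names were added after their values were seen. The genes and lists were chosen with earlier results of these data known. Alternatives were other scalings, no limit on FPKM, a pseudocount of 1, no variance trend, length offsets, a replicate block and leaving out each library; offsets by coding length were added after seeing the data.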

Additional observations from a re-analysis of the deposited data

How the results depend on the processing

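The count of 22 genes that rose was 18 with upper quartile scaling and 22 with a pseudocount of 1. It was 10 with the deposited FPKM (3 fell; by complex from II to V 0, 3, 4 and 3 rose), 7 with equal totals (7 fell; 0, 2, 4 and 1 rose), 14 with no limit on low FPKM (5 in complex IV), 13 without the variance trend (0 in complex II and 5 in complex IV), 11 with transcript length offsets (2 fell; 0, 4, 5 and 2 rose) and 12 with coding length offsets (3 fell; 1, 3, 4 and 4 rose). Upper quartile scaling left 0 in complex II. COX6B2 is counted in each of these totals and in the complex IV counts. It passed the limit on FPKM only through the shLDHA libraries, so its calls under that limit are no test. The shares of all rows that rose and fell in these settings stand with the counts above. The fits without 1 library leave 1 library in a group, and their spread comes from the other pair alone. Their counts come next only to record the setting. They are no test of any gene or complex, and no share of all rows is set beside them. Leaving out 1 library at a time gave 0 to 34 genes that rose and 0 to 2 that fell, with 0 to 2, 0 to 7, 0 to 11 and 0 to 14 rising in complexes II, III with cytochrome c, IV and V.

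Signs turned for these log2 fold changes. With the deposited FPKM they were SDHA -0.082, ATP5F1B -0.31, ATP5F1C -0.0097 and COX5A -0.15, and with upper quartile scaling ATP5F1B -0.10. With equal totals they were SDHA -0.26, ATP5F1B -0.49, COX7A2L -0.15, ATP5MC3 -0.00098, ATP5PF -0.0057, ATP5MPL -0.017, ATP5F1C -0.19, COX5A -0.33, SDHD -0.063 and ATP5PO -0.022. With transcript length offsets they were ATP5F1B -0.23, COX6A1 -0.021, ATP5F1A 0.17, ATP5PF -0.073, ATP5MPL -0.074, ATP5F1C -0.13, COX5A -0.25 and ATP5PO -0.054. With coding length offsets they were COX7A2L -0.075, UQCR11 -0.084, ATP5MPL -0.17, COX5A -0.16 and ATP5MF-PTCD1 0.075. Leaving out a library turned ATP5MF-PTCD1 (from -0.83 to 0.71), ATP5PB (from -0.15 to 0.12) and ATP5F1B (from -0.026 to 0.081), with ATP5PB at 0.00043 without shGFP library 2. The cause was not tested.

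With the replicate number as a block, 31 genes rose in place of 22, 13 of them in complex V in place of 6, and no call was lost. The labels do not say that a number marks a shared culture or day. The deviations of same-numbered libraries correlated at 0.118 over only 2 pairs, which cannot decide whether they were paired. The test rests on 2 libraries a group and 2 residual degrees of freedom. FPKM keep no counts, so depth sets no interval here.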

Other observations

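Among the assembly factors, SDHAF1, which helps to insert the iron-sulphur clusters of SDHB, rose by a log2 fold change of 0.85, UQCC3, an early factor of complex III, by 0.71 and COX14, a factor for the mitochondrially made MT-CO1, by 1.17 (limma adjusted p = 0.0117, 0.0125 and 0.0129). COX14 had 69.1 and 78.0 FPKM in shGFP and 146 and 187 FPKM in shLDHA libraries. SDHB itself, the client of SDHAF1, did not pass the test and stood at -0.15, and MT-CO1 fell by 0.64 on the log2 scale.

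Some subunits of the same complex stood on opposite sides of 0. The core subunits of complex III stood at 0.58 (UQCRC1) and -0.11 (UQCRC2), and the anchors of complex II at 0.46 (SDHD) and -0.13 (SDHC). These differences between genes were not tested.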
